A study of Mus musculus with 12 samples.

Results

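The 10 genes described here are a panel of platelet and megakaryocyte transcripts, taken by gene symbol from the count table of the inferior vena cava (IVC): Ppbp, Pf4, Itga2b, Gp9, Gp1ba, Gp1bb, Gp6, Treml1, Clec1b and Tubb1. They are 10 of the 55414 genes of the table, and the panel was read as a sign of thrombus in the vein. All 10 had an Ensembl identifier in the table and all 10 passed the filter on expression. The IVC came from 12 wild-type C57BL/6 mice that were 10 weeks old, 6 with an infrarenal aortocaval fistula (AVF) made by puncturing the aorta through into the IVC with a needle, and 6 sham-operated mice that had the same surgery without the puncture. Each group held 3 male and 3 female mice, all veins were collected on postoperative day 7, and each mouse gave 1 library of poly(A) RNA. Under the study's methods the circulation was flushed with saline before the vein was taken. The paper divided the 6 AVF into 4 normal AVF (nAVF, samples #04, #06, #07 and #11) and 2 outliers (OUT, samples #05 and #09) after looking at their expression, so values of these subgroups are given here by sample and were not tested.

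Platelets have no nucleus and carry the mRNA that their parent cell, the megakaryocyte, packed into them, so their transcripts can be read in tissue that holds platelets, clot or blood. The panel covers the main tasks of a platelet. Gp1ba, Gp1bb and Gp9 encode subunits of the glycoprotein Ib-IX complex, which catches von Willebrand factor on an injured or sheared wall, Gp6 encodes the collagen receptor, and Clec1b encodes CLEC-2, the receptor of podoplanin. Itga2b encodes the alpha chain of the fibrinogen receptor that links platelets into an aggregate, Treml1 a granule receptor that reaches the surface on activation, Ppbp and Pf4 the chemokines stored in alpha granules, and Tubb1 the beta tubulin of the platelet's marginal band. In RNA from a whole vein, fewer platelets and less RNA per platelet cannot be told apart.

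The libraries held 15177881 to 22717423 counts, and 3 counts, the least taken as detected, came to 0.127 to 0.323 normalized CPM (counts over the library size after TMM normalization), a limit that covers counting error only. Sample #07, a female AVF, had 46.0% of its counts in ribosomal RNA genes, and the other libraries had 2.39% to 12.6%. Smooth muscle genes summed to 2272 to 4837 normalized CPM and endothelial genes to 2017 to 3156 normalized CPM across the 12 samples, so the labelled tissue showed its markers in every vein. Hepatocyte genes summed to 2897 normalized CPM in sample #05 and 8000 in sample #09, against 1.44 to 6.02 in the other 10 samples. For the panel itself, the library that stood apart was sham sample #16, a male, so results that rest on it are given with and without it. It was left out because of its levels in these same genes, so p-values without it are given as a description.

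Levels between genes were compared per kilobase of exon, over all annotated exons of each gene in GENCODE. The order therefore depends on the annotated lengths, such as 1300 bases for Ppbp, 2462 for Pf4 and 5129 for Clec1b. Ppbp was the most abundant member in sham veins, with 31.3 ± 28.5 normalized CPM per kb (SD, n = 6), followed by Pf4 with 10.4 ± 3.34 and Tubb1 with 4.17 ± 4.40. Gp9 came next with 3.05 ± 3.44 normalized CPM per kb, then Treml1 with 1.85 ± 1.87, Clec1b with 1.58 ± 1.54 and Itga2b with 1.34 ± 0.955. Gp6, Gp1ba and Gp1bb were lowest, with 0.821 ± 0.793, 0.794 ± 0.800 and 0.716 ± 0.318 normalized CPM per kb. Apart from Pf4 and Tubb1, neighbours in this order differed by less than the larger of their SDs. AVF veins gave the same order for the first 7 genes, from Ppbp at 12.2 ± 9.01 normalized CPM per kb to Itga2b at 0.609 ± 0.305 (SD, n = 6). Ppbp and Pf4 together made up 57.0% to 72.8% of the summed level of the panel, not scaled by length, in the 12 samples.

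Ppbp and Pf4 are also neighbours in the genome, on the plus strand of chromosome 5. Their GENCODE gene models have 548 bases between them, a distance that depends on the gene model used. In GRCm39 with the GENCODE annotation, Ppbp (ENSMUSG00000029372) lies at chr5:90916371-90917930 and Pf4 (ENSMUSG00000029373) at chr5:90918479-90922110. Itga2b lies at chr11:102341397-102360955 on the minus strand and Gp1ba at chr11:70529948-70532862 on the plus strand, where it overlaps Slc25a11 of the opposite strand. Gp1bb, at chr16:18439067-18441153 on the minus strand, overlaps Septin5 of the same strand, and its expected counts were not whole numbers in any of the 12 samples, so reads were shared between genes and its values are uncertain. Clec1b, at chr6:129370783-129386298 on the plus strand, overlaps Clec9a of the same strand and had counts that were not whole in 66.7% of the samples. The other 8 members had whole counts in every sample, judged on the deposited values with no tolerance.

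The promoters of 4 members are shown, the neighbours Ppbp and Pf4, Gp9 of the von Willebrand factor receptor, and Clec1b. Each holds 250 bases before and 50 bases after the start of the gene from RefSeq on the build GRCm38.p6, with Ppbp at chr5:90768268-90768567 on the plus strand, Pf4 at chr5:90772185-90772484 on the plus strand, Gp9 at chr6:87777820-87778119 on the plus strand and Clec1b at chr6:129397047-129397346 on the plus strand. Capitals mark GATAA, the letters read by GATA factors, and GGAAG, the core read by ETS factors such as Fli1, on either strand, where they appear as TTATC and CTTCC.
Ppbp: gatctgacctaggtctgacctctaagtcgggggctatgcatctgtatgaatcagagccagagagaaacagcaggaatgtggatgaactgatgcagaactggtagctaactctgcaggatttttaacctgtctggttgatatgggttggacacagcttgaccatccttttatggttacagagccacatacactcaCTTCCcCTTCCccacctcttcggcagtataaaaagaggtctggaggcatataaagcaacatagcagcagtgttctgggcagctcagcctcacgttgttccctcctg
Pf4: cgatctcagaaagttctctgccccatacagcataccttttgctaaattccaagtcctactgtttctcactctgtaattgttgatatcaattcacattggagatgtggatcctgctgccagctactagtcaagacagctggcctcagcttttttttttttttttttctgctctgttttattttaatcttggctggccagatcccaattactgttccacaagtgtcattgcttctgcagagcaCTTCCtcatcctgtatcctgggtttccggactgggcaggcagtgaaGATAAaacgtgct
Gp9: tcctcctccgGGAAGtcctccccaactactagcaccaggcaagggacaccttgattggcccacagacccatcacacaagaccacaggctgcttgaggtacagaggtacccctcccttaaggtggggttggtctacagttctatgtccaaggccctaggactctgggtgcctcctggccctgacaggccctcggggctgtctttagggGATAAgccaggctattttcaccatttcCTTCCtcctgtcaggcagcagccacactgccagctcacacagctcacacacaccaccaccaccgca
Clec1b: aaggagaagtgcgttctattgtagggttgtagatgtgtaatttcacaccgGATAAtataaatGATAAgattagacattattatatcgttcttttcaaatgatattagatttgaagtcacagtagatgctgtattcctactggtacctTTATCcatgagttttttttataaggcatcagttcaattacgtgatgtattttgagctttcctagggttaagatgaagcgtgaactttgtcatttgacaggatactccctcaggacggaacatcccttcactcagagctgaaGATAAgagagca
Among the 10 promoters of the panel, 5 held GATAA, 9 held GGAAG and 4 held both, while of 27025 mouse promoters of the same length 25.8% held GATAA, 71.1% GGAAG and 17.4% both. Pf4 and Gp9 hold both motifs, Ppbp holds GGAAG at 2 places and no GATAA, and Clec1b holds GATAA at 4 places and no GGAAG. These are matches of letters, not sites of binding.

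To ask whether platelet transcripts rose in veins with a fistula, the 6 AVF were compared with the 6 sham samples. None of the 10 genes was called higher and none was called lower in AVF, where 3.37% of the 15912 genes tested were called higher and 1.4% lower by edgeR's quasi-likelihood test (adjusted p under 0.05 with a log2 fold change of 1 or more in size). The log2 fold changes of all 10 were below 0, as were those of 51.9% of all genes, with a median of -1.03 over the panel and of -0.014 over all genes tested. At an unadjusted p under 0.05 there were 2 members, Ppbp and Itga2b, where 15.2% of all genes had such a p and a negative log2 fold change. DESeq2 called 1 member lower, Itga2b (adjusted p = 0.0431), and none higher. With sex as a covariate, edgeR called 2 members lower, Ppbp (log2 fold change -1.67, adjusted p = 0.0343) and Itga2b (-1.22, adjusted p = 0.0395). The 2 groups overlapped in all 10 genes, while 1.51% of all genes were lower in every AVF than in every sham vein. The summed level of the panel was 25.0 to 86.2 normalized CPM in AVF, with a median of 54.8, and 48.5 to 263 in sham, with a median of 87.1.

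**Figure D1:**
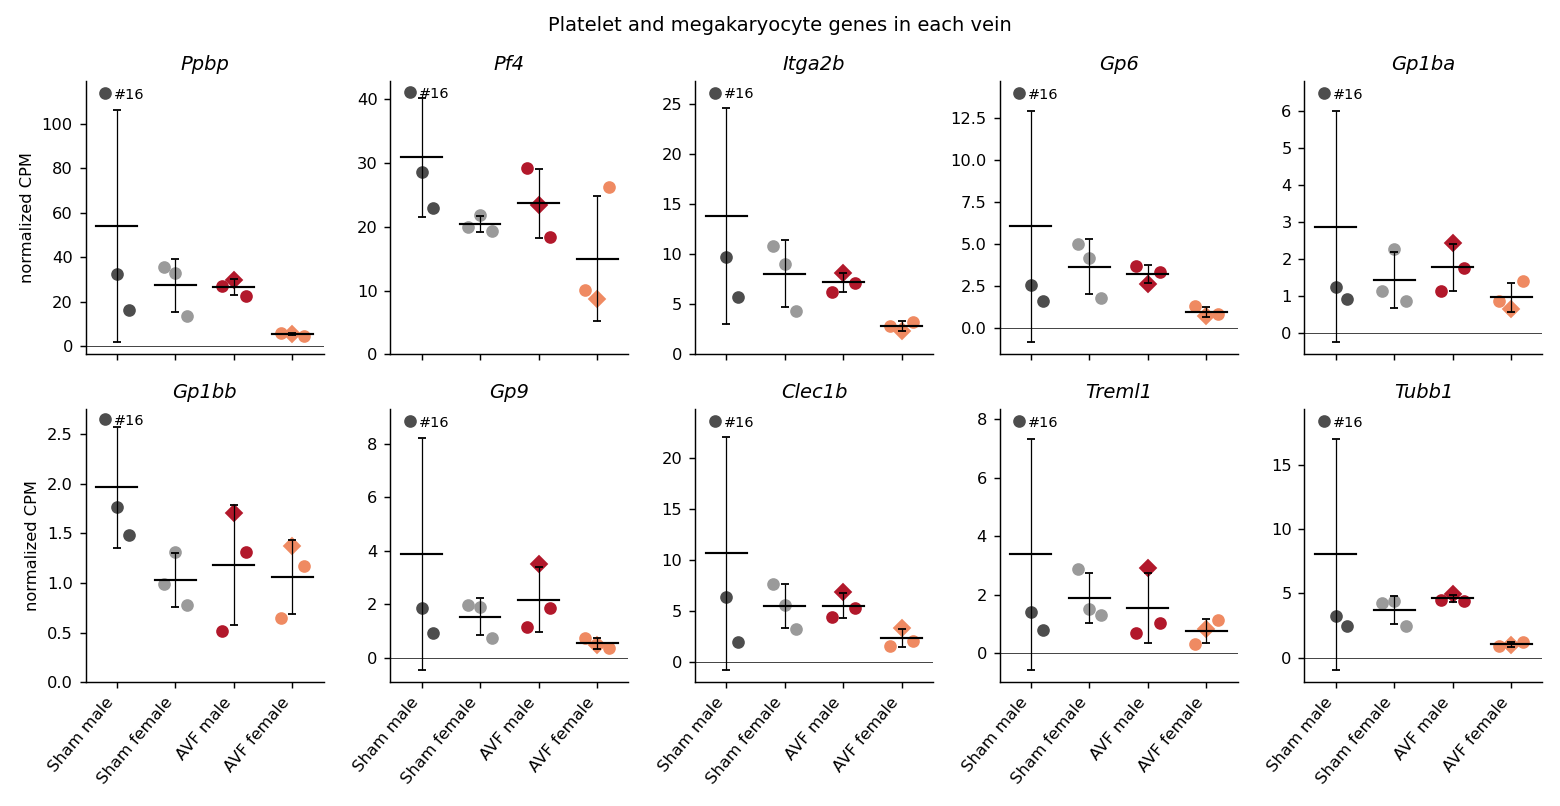
Normalized CPM (vertical axes, linear, a scale for each gene) of the 10 genes in each of the 12 veins, grouped by operation and sex; points are veins, diamonds are the OUT samples #05 and #09, horizontal lines are means and bars are SD (n = 3). Sham sample #16 is the highest vein for all 10 genes, and the 3 female AVF lie below the 3 male AVF for 6 of them.

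The granule chemokines differed from each other in size. Ppbp, the precursor of a neutrophil-attracting chemokine, was 4.69 to 29.7 normalized CPM in AVF with a median of 14.2, and 13.6 to 114 in sham with a median of 32.7. Its log2 fold change was -1.35 (SE 0.61, adjusted p = 0.148), the largest of the panel. Pf4, platelet factor 4, was 8.65 to 29.2 normalized CPM in AVF with a median of 20.9, and 19.4 to 41.1 in sham with a median of 22.4. The log2 fold change of Pf4 was -0.40 (SE 0.30, adjusted p = 0.383), with an unadjusted 95% interval of -1.05 to 0.24. Both chemokines had veins of each group at shared levels.

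Among the receptors, Itga2b had 2.30 to 8.17 normalized CPM in AVF with a median of 4.75, and 4.31 to 26.1 in sham with a median of 9.39. It had the lowest p of the panel, with a log2 fold change of -1.12 (SE 0.44, adjusted p = 0.103). Gp6, the collagen receptor, had 0.712 to 3.66 normalized CPM in AVF and 1.56 to 14.0 in sham, and its log2 fold change was -1.21 (SE 0.58, adjusted p = 0.175). The glycoprotein Ib-IX genes had log2 fold changes of -0.98 for Gp9, -0.63 for Gp1ba and -0.40 for Gp1bb, with adjusted p values of 0.342, 0.440 and 0.475. Clec1b and Treml1 had log2 fold changes of -1.02 (adjusted p = 0.219) and -1.16 (adjusted p = 0.205). Tubb1, the platelet tubulin, had 0.862 to 4.91 normalized CPM in AVF and 2.45 to 18.4 in sham, with a log2 fold change of -1.04 (SE 0.61, adjusted p = 0.265). The unadjusted 95% intervals of all 10 genes had their upper ends between -0.17 (Itga2b) and 0.50 (Gp1ba).

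Sham sample #16 set much of the size of these differences. It was the highest of the 12 veins for all 10 genes, at 1.88 to 7.73 times the median of the other 11 veins, with 114 normalized CPM of Ppbp, 26.1 of Itga2b, 23.6 of Clec1b and 18.4 of Tubb1. Its summed level of 263 normalized CPM compares with 48.5 to 90.3 in the other 5 sham veins. Without sample #16 the median log2 fold change of AVF against sham moved from -1.03 to -0.28. In that fit 9 of 10 genes stayed below 0, where 52.4% of all genes did. No member had an unadjusted p under 0.05, where 28.8% of all genes did in either direction. The log2 fold change was then -0.71 for Ppbp (adjusted p = 0.397), -0.66 for Itga2b (adjusted p = 0.255) and 0.10 for Gp1ba (adjusted p = 0.894), and the upper ends of the 95% intervals reached 0.14 (Itga2b) to 1.09 (Gp9). Neutrophil genes were highest in sample #16 too, with a sum of 132 normalized CPM where the other sham veins had 15.9 to 114, while its erythroid sum of 5456 lay within the 4012 to 6553 of the other sham veins and its macrophage sum of 644 within their 563 to 812. Their part in the result was not tested.

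**Figure D2:**
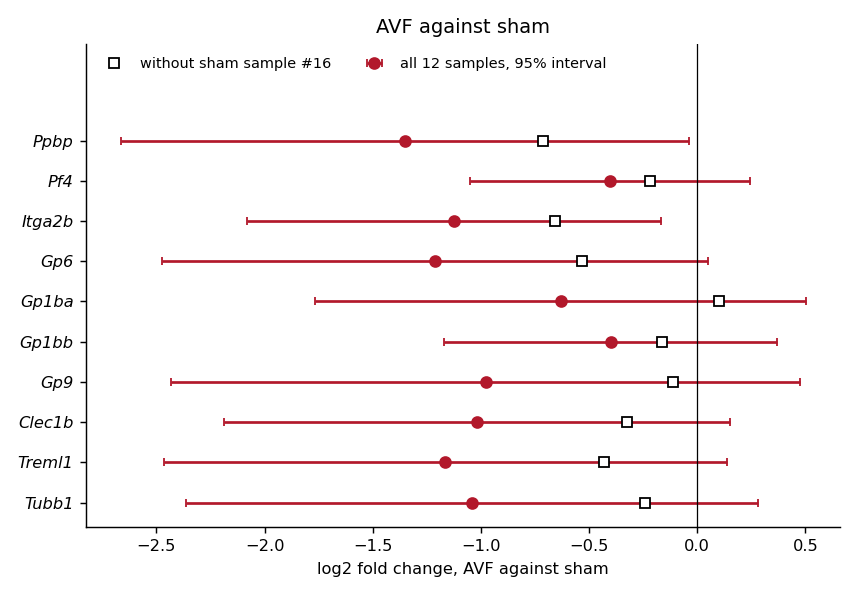
Log2 fold change of AVF against sham (horizontal axis) for each gene; filled circles are the fit to all 12 samples with unadjusted 95% intervals, and open squares are the fit without sham sample #16. All 10 filled circles lie below 0 and each moves toward 0 without sample #16, with Gp1ba at 0.10.

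The 2 OUT veins were at opposite ends of the AVF in the summed level of the panel. Sample #05, the male OUT, had a summed level of 86.2 normalized CPM, beside 78.3 and 67.1 in the other male AVF, samples #04 and #06. Sample #09, the female OUT, had 25.0 normalized CPM, beside 25.2 in sample #07 and 42.5 in sample #11. The sum of sample #05 lay within the sham range, above the 85.0, 55.0 and 48.5 of samples #22, #18 and #23 and below the 89.3, 90.3 and 263 of samples #17, #19 and #16, while that of sample #09 was below all 6 sham veins. By gene, sample #05 was the highest AVF for Ppbp (29.7 normalized CPM), Itga2b (8.17), Gp9 (3.50), Gp1ba (2.43), Gp1bb (1.70), Treml1 (2.92), Clec1b (6.86) and Tubb1 (4.91), but not for Pf4 (23.4) or Gp6 (2.63). For Gp9, Gp1ba, Treml1 and Tubb1 it was second of the 12 veins, above every sham vein except sample #16. At 3.06 times the median of the other 11 veins, Gp9 was highest there, and Treml1 was at 2.59 times. Within the AVF, the other 5 veins had 0.323 to 1.12 normalized CPM of Treml1, the lowest of them resting on 3 counts. In sample #09 4 genes, Pf4, Itga2b, Gp1ba and Gp6, were at their lowest of the 12 veins. Without samples #05 and #09 the median log2 fold change of the panel was -1.11 and none of the 10 genes was called. The share of all genes called in that fit was not counted.

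The 3 female AVF had the lowest summed levels of the 12 veins. These were 25.2, 25.0 and 42.5 normalized CPM, against 78.3, 86.2 and 67.1 in male AVF. For 6 genes, Ppbp, Itga2b, Gp9, Gp6, Clec1b and Tubb1, all 3 female AVF were below all 3 male AVF, a pattern that 4.54% of 22163 genes tested showed. None of the 10 genes passed the test between the sexes, however, where 0.018% of all genes were called lower and 0.00451% higher (adjusted p under 0.05, with the smaller fold threshold that the study set for the sexes). All 10 log2 fold changes of female against male were below 0, as were those of 48.5% of all genes. There were 5 members with an unadjusted p under 0.05, Ppbp, Itga2b, Gp9, Gp6 and Tubb1, all with lower values in females, where 2.4% of all genes were. DESeq2 called 1 of the 10 lower in females, Ppbp (adjusted p = 0.0155). Of the other blood cell lists, all 8 neutrophil genes tested had log2 fold changes below 0 between the sexes in AVF (median -0.43), with none called. All 9 erythroid genes were above 0 (median 0.47), with none called, but only female sample #11 had a high erythroid sum. That sum was 3874, 3736 and 19659 normalized CPM in female AVF samples #07, #09 and #11. In male AVF samples #04, #05 and #06 it was 7186, 10685 and 4158, so samples #07 and #09 lay below every male AVF. The part of these blood cells in the result was not tested.

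Ppbp was 5.93, 5.59 and 4.69 normalized CPM in the female AVF, samples #07, #09 and #11, and 26.9, 29.7 and 22.5 in the male AVF, samples #04, #05 and #06. The means were 5.40 ± 0.641 and 26.4 ± 3.61 normalized CPM (SD, n = 3), and the log2 fold change of female against male was -2.31 (SE 0.61, adjusted p = 0.775 in the edgeR fit). The female values lay close together and far from the male ones. Tubb1 had 0.862, 0.986 and 1.22 normalized CPM in female AVF and 4.46, 4.91 and 4.43 in male AVF, and a log2 fold change of -2.16 (SE 0.67, adjusted p = 0.980 by edgeR). Gp9 had 0.754, 0.493 and 0.375 normalized CPM in female AVF, which rest on 7, 9 and 8 counts, and 1.14, 3.50 and 1.85 in male AVF. Its log2 fold change was -2.06 (SE 0.81). In the edgeR fit across all genes the unadjusted p was 0.00269 for Ppbp, 0.00747 for Tubb1 and 0.0270 for Gp9. The receptors of collagen and fibrinogen followed, with log2 fold changes of -1.80 (SE 0.74) for Gp6 and -1.37 (SE 0.50) for Itga2b.

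Pf4 did not separate the sexes of the AVF. Female AVF had 10.1, 8.65 and 26.2 normalized CPM of Pf4 and male AVF had 29.2, 23.4 and 18.4, so sample #11 lay within the male range, and the log2 fold change was -0.66 (SE 0.38, adjusted p = 0.980 by edgeR). Gp1ba, Treml1 and Gp1bb overlapped as well, with log2 fold changes of -0.86, -0.97 and -0.13, and that of Gp1bb turned to 0.22 without male AVF replicate 2, sample #05, and to 0.12 without sample #07. Sample #07 has the high share of ribosomal RNA given above. Without ribosomal RNA genes the median of the panel was -1.28 and without sample #07 it was -1.17, against -1.29 with all samples. Without sham sample #16, which enters through the shared estimate of spread, the unadjusted p of Tubb1 was 2.68e-05 (adjusted p = 0.0652) by edgeR. That of Ppbp was 7.12e-05 (adjusted p = 0.130), and 6 members had an unadjusted p under 0.05 where 4.83% of all genes did. The SE was then 0.30 for Tubb1 and 0.36 for Ppbp. Sample #16 was left out for its extreme levels in these same genes, which narrows their spread by selection. These p-values are therefore a description and not a separate test.

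**Figure D3:**
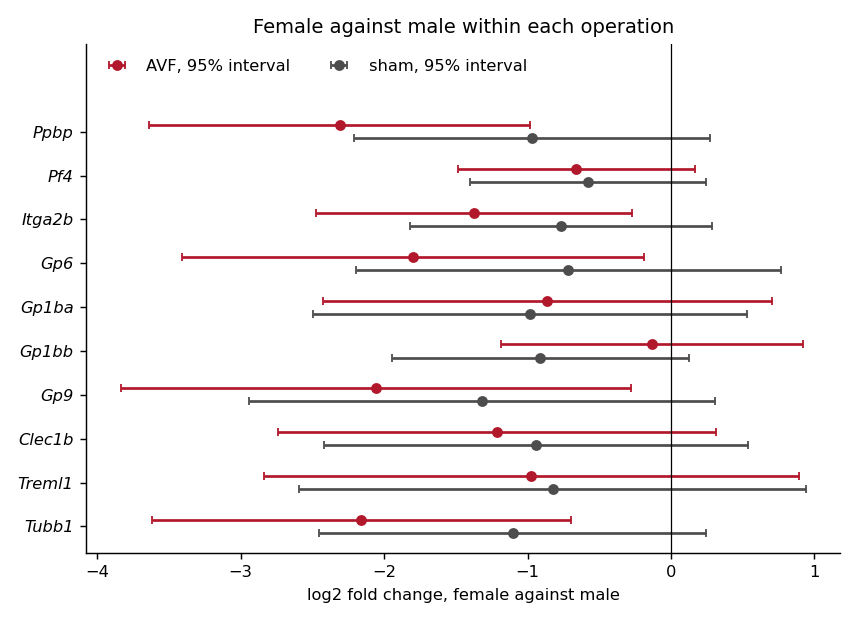
Log2 fold change of female against male mice (horizontal axis) for each gene in AVF and in sham veins, with unadjusted 95% intervals from the model of 4 groups (n = 3 per sex and operation). All 20 points lie below 0, and those of Ppbp, Tubb1, Gp9, Gp6 and Itga2b in AVF have intervals that leave out 0.

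In sham veins the direction between the sexes turned on sample #16. None of the 10 genes was called, where 0.0226% of all genes were called lower and 0.0226% higher, and none had an unadjusted p under 0.05 in the edgeR fit, where 7.58% of all genes did, nor did DESeq2 call any. All 10 log2 fold changes were below 0, as were those of 46.6% of all genes, with a median of -0.92. Pf4 and Gp1bb were lower in all 3 females than in all 3 males, as 7.6% of all genes were. Without sample #16, 2 of the 10 log2 fold changes were below 0 and the median was 0.27. Female sham veins had 35.6, 32.9 and 13.6 normalized CPM of Ppbp, and male sham veins had 114, 32.4 and 16.2.

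The difference between the sexes in AVF and the difference in sham veins were compared through the interaction of operation and sex. None of the 10 genes was called, and the edgeR fit called 0% of all genes in either direction, while no member had an unadjusted p under 0.05, where 4.82% of all genes did. DESeq2 called none of the members. The log2 interaction of Ppbp was -1.34 (SE 0.81), that of Gp6 -1.09 (SE 0.99) and that of Tubb1 -1.05 (SE 0.89), and the median over the panel was -0.44, with 8 of 10 below 0 where 50.2% of all genes were. Sample #16 again decided the size. Without it the median was -1.67, and 6 members, Ppbp, Itga2b, Gp9, Gp6, Clec1b and Tubb1, had an unadjusted p under 0.05, where 7.21% of all genes did. The lowest of these was 0.000176 for Tubb1, with a log2 interaction of -2.53 (SE 0.45, adjusted p = 0.668 by edgeR), so no member was called there either. Sample #16 was picked out by its levels in these same genes, so the fit without it is a description and not a separate test.

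Most of the 10 genes varied together from vein to vein. After the mean of each operation was subtracted from log2 CPM, the 45 pairs of members had Pearson correlations of 0.33 to 0.96 over the 12 samples, with a median of 0.82. Points of this kind share their library and its depth, and the values are given as a description. Itga2b followed the summed level of the other 9 members most closely, with a Pearson r of 0.97 and a Spearman rho of 0.94, and Tubb1 had 0.96 and 0.97. Without the 2 samples farthest from the median, r was 0.96 for Itga2b and 0.92 for Tubb1. Gp6, Ppbp, Gp9, Clec1b, Gp1ba and Treml1 had r of 0.90, 0.90, 0.89, 0.87, 0.86 and 0.80. Gp1bb, whose reads were shared with other genes, was the lowest with an r of 0.51 and a rho of 0.32, and without sample #16 it had an r of 0.20.

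Pf4 was the other gene that left the common pattern. Its r with the other 9 members was 0.66 over 12 samples, with a rho of 0.63, and 0.43 without the 2 farthest samples. Not scaled by length, the level of Pf4 divided by that of Ppbp was 0.361 in sample #16, 0.561 to 1.43 in the other sham veins, 0.787 to 1.71 in 5 of the AVF, and 5.60 in sample #11. Sample #11 had 26.2 normalized CPM of Pf4 beside 4.69 of Ppbp, so Pf4 made up 61.8% of its summed panel. Macrophage genes were also highest in sample #11, with a sum of 1644 normalized CPM against 859 to 1213 in the other AVF, and over the 12 samples Pf4 had a Pearson r of 0.55 with the summed macrophage genes (rho 0.52, and r 0.48 without the 2 farthest samples) where the other 9 members had r of -0.31 to 0.0078. The contrast was seen within the 6 AVF, where the r of Pf4 was 0.68, while within the 6 sham veins it was 0.14 and that of Gp1bb was 0.19. Pf4 is known to be transcribed in some tissue macrophages. The part of these cells in its level was not tested.

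**Figure D4:**
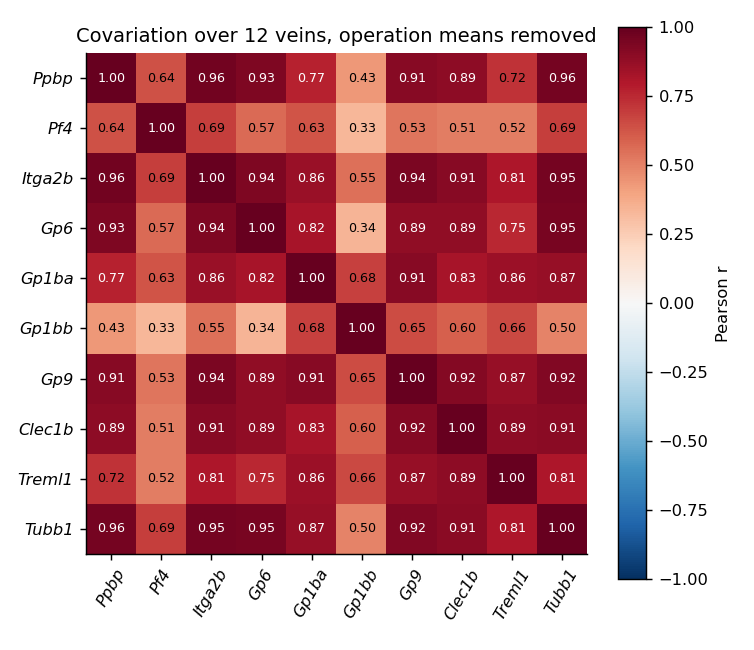
Pearson r between each pair of the 10 genes over the 12 veins, on log2 CPM after subtracting the mean of each operation (colour scale from -1 to 1). The receptors other than Gp1bb form a block of high r with Ppbp and Tubb1, and Pf4 and Gp1bb have the pale rows.

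The genes most like the panel were searched among 15902 other genes by Pearson r with the log2 of its summed level over the 12 samples, with both operations pooled. Alox12, the platelet lipoxygenase, was first with r of 0.98, followed by Nrgn with 0.97 and Draxin with 0.97. Slamf1, Mpig6b, an inhibitory receptor of megakaryocytes and platelets, Treml2, Mfsd2b, Cd226 and Rgs18 were also among the 10 genes of highest r, with 0.94, 0.92, 0.92, 0.90, 0.89 and 0.89. Alox12 was 1.19 to 8.51 normalized CPM in AVF and 4.36 to 28.9 in sham, and its highest vein was sample #16. Alox12, Mpig6b and Cd226 were on the lists of other platelet genes.

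The other platelet genes were divided by role. Among 16 other receptors and surface proteins, 15 passed the filter and none was called in AVF against sham, with a median log2 fold change of -0.26. Fcer1g, the signalling chain that pairs with GPVI and is shared with other blood cells, passed the adjusted p but not the fold threshold (log2 fold change 0.63, SE 0.18, adjusted p = 0.0376). Cd226, P2ry1 and F2rl2 had log2 fold changes of -0.79, -0.79 and -0.86, with adjusted p values of 0.0785, 0.0903 and 0.0921. Members of this list followed the panel to different degrees (operation means subtracted, 12 samples). Mpig6b, Gp5, Cd226 and F2rl2 had r of 0.93, 0.87, 0.86 and 0.84 (rho 0.93, 0.86, 0.75 and 0.87). For P2ry12 and P2rx1 r was 0.73 and 0.71 (rho 0.64 and 0.76). Selp, which endothelium also makes, had 0.27 and Itga2 -0.22 (rho 0.17 and -0.16).

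None of the 9 granule and secreted proteins was called in AVF against sham, and their median log2 fold change was 0.26. Thbs1, thrombospondin, which fibroblasts and smooth muscle also secrete, passed the adjusted p with a log2 fold change of 0.93 (SE 0.23, adjusted p = 0.0203), while F13a1, Tgfb1 and Slc35d3 did not, at 0.60, 0.26 and -1.04. Vwf, the ligand of the glycoprotein Ib-IX complex and mostly endothelial in a vein, had 0.14 (adjusted p = 0.654). Of 13 genes of signalling and cytoskeleton 2 fell, where 1.4% of all genes tested did, both of them tubulins that muscle and other tissues express too. Tuba8 was 0.703 to 3.07 normalized CPM in AVF and 2.24 to 9.08 in sham (log2 fold change -1.83, SE 0.41, adjusted p = 0.0138), and Tuba4a was 5.66 to 12.3 in AVF and 15.7 to 27.5 in sham, with no overlap, as in 1.51% of all genes (log2 fold change -1.20, SE 0.20, adjusted p = 0.00245). Neither followed the panel, with r of -0.026 and -0.33 (rho -0.17 and -0.39). In the same list Alox12 and Plek had r of 0.97 and 0.92 (rho 0.95 and 0.91), Syk, a kinase of the collagen receptor's pathway, passed the adjusted p but not the fold threshold (log2 fold change 0.76, adjusted p = 0.00514), and Ptgs1, cyclooxygenase 1, had -0.45 (adjusted p = 0.0466).

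Of the 8 megakaryocyte transcription factors 6 passed the filter and 1 rose, where 3.37% of all genes did. Runx1, which also acts in other blood cells and in mesenchyme, was 16.3 to 33.1 normalized CPM in AVF and 5.17 to 9.29 in sham, with no overlap, as in 4.55% of all genes (log2 fold change 1.49, SE 0.20, adjusted p = 0.000788). It did not follow the panel, with an r of 0.14 and a rho of 0.098. Nfe2, the factor of late megakaryocytes that drives Tubb1, had -0.44 (adjusted p = 0.504), and its r with the panel was 0.73 (rho 0.57), which was 0.31 without the 2 farthest samples. Tal1, Mef2c, Zfpm1 and Fli1 had log2 fold changes of 0.18, 0.14, 0.092 and 0.051. Gata1 and Gfi1b, which mark the megakaryocyte and erythroid lineage, did not pass the filter. Gata1 had 2 to 13 counts per library and Gfi1b 0 to 10 counts.

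Of 10 ligands that platelet receptors meet in the wall or in plasma, 7 rose in AVF and none fell, where 3.37% of all genes tested were called higher and 1.4% lower, and the median log2 fold change was 1.51. Vwf, Vtn and Pdpn were not called. Fibronectin (Fn1) was 2179 to 5170 normalized CPM in AVF and 713 to 1213 in sham (log2 fold change 1.75, SE 0.21, adjusted p = 0.000360). The collagens, ligands of Gp6, rose as well, with log2 fold changes of 1.17 for Col3a1, 1.34 for Col1a1 and 1.19 for Col1a2 (adjusted p = 0.00379, 0.00432 and 0.00647). Pdpn, podoplanin, the ligand of Clec1b, passed the adjusted p with a log2 fold change of 0.87 (SE 0.17, adjusted p = 0.00639), under the fold threshold. The fibrinogen genes Fga, Fgb and Fgg completed the 7, but their counts came from the 2 veins with hepatocyte genes. Fga had 175 normalized CPM in sample #05 and 895 in sample #09, and 0 to 0.646 in the other 10 samples. Vtn was also high in these veins, with 48.3 in sample #05 and 126 in sample #09, and 6.33 to 14.1 in the other 10 samples. The median of 1.51 therefore takes in genes that were high in these 2 veins. Without samples #05 and #09, 4 of the 10 ligands were called higher, and the share of all genes called in that fit was not counted.

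**Figure D5:**
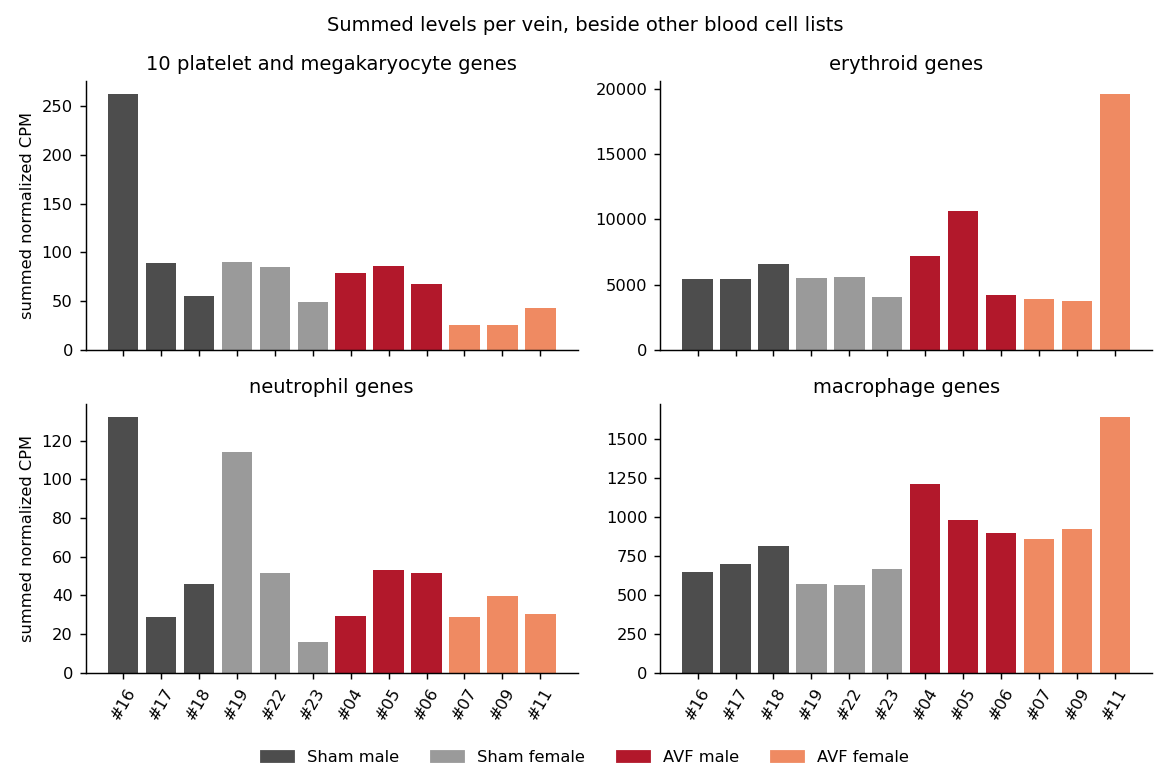
Summed normalized CPM (vertical axes, linear, from 0) of the 10 platelet and megakaryocyte genes and of erythroid, neutrophil and macrophage genes in each of the 12 veins; bars are single samples, coloured by operation and sex. The panel is highest in sham sample #16, while erythroid and macrophage genes are highest in AVF sample #11.

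The vein with most erythroid and macrophage transcript, sample #11, was not the vein with most of the panel. Erythroid genes summed to 3736 to 19659 normalized CPM in AVF and 4012 to 6553 in sham, with a median log2 fold change of 0.66 over the 9 genes tested. The erythroid sum was highest in sample #11, which had the third lowest summed panel of the 12, and was 10685 in sample #05. The Pearson r of the summed panel with the erythroid sum was 0.30 (rho 0.41), with operation means subtracted over the 12 samples. Neutrophil genes summed to 28.6 to 52.8 normalized CPM in AVF and 15.9 to 132 in sham, none of the 6 tested was called, and the r with the panel was 0.62 (rho 0.55), or 0.41 without sample #16. Of the 11 macrophage genes 1 was called higher in AVF, where 3.37% of all genes were, and 7 passed the adjusted p with a positive log2 fold change, where 8.63% of all genes did, among them C1qb and C1qa (both with a log2 fold change of 0.89), and their sum had an r of 0.0044 with the panel (rho 0.063). None of the 8 endothelial or 6 smooth muscle genes was called, with median log2 fold changes of -0.040 and 0.13. All 10 hepatocyte genes and 2 of 6 genes of liver sinusoidal endothelium were called higher, where 3.37% of all genes were. Hepatocyte genes summed to 2897 normalized CPM in sample #05 and 8000 in sample #09, against 2.91 to 6.02 in the other AVF. The part of these cell types in the values of the panel was not tested.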

How the data were processed

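RNA-seq of the IVC of 12 mice was analysed, 1 library per mouse. After trimming with PRINSEQ and Trimmomatic 0.39, the authors mapped the reads to GRCm39 by STAR 2.7.7a with Ensembl's gene models, estimated expression by strand with RSEM 1.3.3, and deposited its expected counts, not normalized (versions from the submitters' processing notes). Expected counts were rounded and normalized by TMM in edgeR 4.0.16 (R 4.3.3), and levels are CPM on the normalized library sizes. The 15912 genes above 1 CPM in 2 or more samples were tested between AVF and sham, and the 22163 genes with a total above 12 counts between the sexes and for the interaction, in a model of 4 groups, by edgeR's quasi-likelihood test with Benjamini-Hochberg adjustment over all of them. The paper's exact test, DESeq2 1.42.0 and other settings were alternatives. No member fell below the filter. The tests were tested on simulated data.

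The members and lists were chosen with earlier results of these data known, so no p-value was adjusted over a list alone and no list was tested as a set. All 10 members were named, and from each other list up to 4 tested genes with the lowest adjusted p between AVF and sham, every transcription factor, and the 10 genes most like the panel; Vwf, Col1a2, the fibrinogen genes and genes named for how closely they followed the panel were named after their values were seen. The results of some genes that the rule names are not reported here. Covariation used log2 CPM with 1 added. Names and positions came from GENCODE on GRCm39, a later release than the authors' annotation, and promoters from RefSeq on GRCm38.p6, with 10 of 10 members matched by symbol. Libraries of a group differed beyond counting error (chi-square over degrees of freedom 41.3 to 677). Each library is a separate mouse. Of the table's columns, all 12 belonged to these samples.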

Additional observations from a re-analysis of the deposited data

Results flagged for a closer look

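Within the 6 AVF and the 6 sham veins, the highest or lowest sample was compared with the rest by its gap over the group's whole range (Dixon's 95% critical value, which chance passes in about 1 in 20 groups), for 10 genes and 4 summed levels in 2 groups, 28 in all. There were 10 such values, and 9 of them were sham sample #16. In that vein 8 of the 10 genes stood apart, Ppbp with 114 normalized CPM, Itga2b with 26.1, Gp9 with 8.84, Gp1ba with 6.47, Gp6 with 14.0, Treml1 with 7.94, Clec1b with 23.6 and Tubb1 with 18.4, and so did the summed level of the panel with 263. The genes follow each other, so these are not separate events. Pf4 and Gp1bb were also highest in sample #16 but did not stand apart. Treml1 in AVF sample #05, with 2.92 normalized CPM, was the other value.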

How the results depend on the processing

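No alternative gave a member called higher in AVF. As called lower, DESeq2 gave 1 (Itga2b, log2 fold change -1.12, adjusted p = 0.0431) and sex as a covariate gave 2 (Ppbp, -1.67, adjusted p = 0.0343, and Itga2b, -1.22, adjusted p = 0.0395), and the other settings gave none. Without sham sample #16 the median of AVF against sham was -0.28 and Gp1ba was 0.10. Without samples #05 and #09, 1 granule gene and 4 ligands were called higher, and the share of all genes called in that fit was not counted. DESeq2 called Ppbp lower in female AVF (-2.29, adjusted p = 0.0155), and Gp1bb turned to 0.22 without sample #05 and 0.12 without sample #07. With 1 sample left out in turn, the median of AVF against sham was -1.28 to -0.28, Gp1ba -0.87 to 0.10, Gp1bb between the sexes in AVF -0.48 to 0.22, the median between the sexes in sham -1.35 to 0.27 with 2 to 10 genes below 0, and the median interaction -1.67 to -0.070 with 5 to 9 genes below 0. Deviations of samples of the same sex and number correlated at -0.22 to 0.28 (mean 0.11, against -0.02 for other pairs), too few values to exclude pairing. With that number as a replicate block, AVF against sham had no member called and a median of -0.87, and the interaction a median of -0.86. A block by number across the sexes gave medians of -1.32 in AVF and -0.54 in sham, with no call. In female AVF, Gp9 rested on 7 to 9 counts per library and Treml1 on 3 to 24, which limits the precision of their fold changes.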
